A study of Mus musculus with 4 samples.

Results

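The nuclear-encoded subunits of oxidative phosphorylation were taken as the genes of the deposited table whose names begin with Nduf followed by a, b, c, s or v and a digit, with Uqcr, with Cox followed by 4 to 8, or with Atp5, together with Sdha, Sdhb, Sdhc and Sdhd. This rule reads names only and used no measured value. It gave 82 of 28611 rows, namely 37 for complex I, 4 for complex II, 8 for complex III, 16 for complex IV and 17 for complex V, after 3 rows with -ps in their names had been left out. The rule takes in several genes whose proteins are not subunits of the complex they are named for. Ndufa4 encodes a component of complex IV, Cox7a2l encodes a factor that joins complexes III and IV, and Atp5sl and Atp5s are now named Dmac2 and Dmac2l in the RefSeq gene table.

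Oxidative phosphorylation takes electrons from NADH at complex I and from succinate at complex II, passes them through ubiquinone, complex III and cytochrome c to oxygen at complex IV, and uses the proton gradient built on the way to make ATP at complex V. The mitochondrial genome encodes a small set of core subunits of complexes I, III, IV and V, and all other subunits, with the whole of complex II, come from nuclear genes. In the ovary, granulosa cells (GCs) and theca cells use mitochondria also for the opening step of steroid synthesis, in which cholesterol is cleaved in the matrix, and the maturing oocyte relies on mitochondrial ATP.

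Gene expression was compared between 2 Hdac3flox/flox and 2 Hdac3cKO libraries, each from 1 mouse according to the design text. The Hdac3cKO females are Hdac3flox/flox animals that also carry Foxl2-CreERT2, a tamoxifen-activated Cre recombinase driven by the gene of the GC transcription factor FOXL2. The controls carry the same floxed alleles without Cre. All 4 animals were C57BL/6 females that were given 20 mg/kg tamoxifen once, at 18 days of age, and were collected at 24 days, so that the genotypes differ in Cre as well as in Hdac3 and the effects of these cannot be told apart. The labels name ovarian GCs as the cell type, while the extraction protocol describes frozen ovaries, and the study states that deletion in this model is incomplete.

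The libraries held between 17621129 and 18452073 reads, of which the 82 genes took 0.906 and 0.883% in Hdac3flox/flox and 0.892 and 0.893% in Hdac3cKO. Values are RPKM, which corrects read numbers for gene length and for the size of the library. Hdac3 itself read 24.4 and 24.4 RPKM in Hdac3flox/flox against 19.4 and 19.2 RPKM in Hdac3cKO, with a log2 fold change of -0.34 ± 0.03 (SE, limma adjusted p = 0.00935). Its reads cover the whole gene and not only the floxed part. Markers of other cell types shifted between genotypes as well. Markers are counted as higher or lower where the limma test described below called them. That test called 7.68% of all tested genes higher and 11.0% lower. Of 7 endothelial markers 5 were lower, and their summed level was 90.7 and 89.7 RPKM in Hdac3flox/flox and 64.5 and 66.0 RPKM in Hdac3cKO. Of 9 GC markers 6 were higher and 2 lower, with sums of 8346 and 7875 against 9848 and 9468 RPKM, and of 6 theca markers 1 was higher and 4 lower, with sums of 3460 and 3249 against 2841 and 2783 RPKM. All 7 oocyte markers had a positive log2 fold change (median 0.19) with 1 called higher, while 3 of 5 fibroblast, 2 of 4 smooth muscle and 1 of 4 leukocyte markers tested were lower. Of 7 fat markers 3 were tested, and their sum over all 7 overlapped between genotypes, at 14.4 and 12.3 against 11.8 and 18.0 RPKM. Among the 3 tested Plin1 was lower, and Cfd (0.118 and 0 against 2.29 and 7.02 RPKM) and Car3 were higher. Cfd reached the 0.5 RPKM needed for testing only in the Hdac3cKO libraries, where it is higher. The part of such shifts in the results that follow was not tested. In RNA from mixed cells, fewer cells of a type and less RNA per cell cannot be told apart.

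The question put to these genes was whether loss of Hdac3 was accompanied by a change in the transcripts of the respiratory chain, complex by complex. Each gene was tested with limma on log2(RPKM + 0.1). The p-values were adjusted over the 15528 tested genes by the method of Benjamini and Hochberg, and a gene was called at a two-sided adjusted p under 0.05. Of the 82 genes 81 were tested, and Cox7b2, which encodes an isoform of complex IV best known from testis, was below the limit of 0.5 RPKM in at least 2 libraries. It read 0.101 RPKM in Hdac3flox/flox replicate 1 and 0 RPKM in the other libraries. With 3 genes higher and 5 lower in Hdac3cKO, 9.88% of the tested subunit genes were called, beside 18.7% of all tested genes (7.68% higher and 11.0% lower). Among genes with a mean level of at least 10 RPKM, 7 of 71 subunit genes were called, or 9.86%, beside 28.9% of all such genes.

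The changes were small in either direction. The log2 fold change of the 81 genes had a median of -0.01, with the middle 50% of genes between -0.09 and 0.04. Over all tested genes the median was -0.04 and the middle 50% lay between -0.22 and 0.11. Of the subunit genes 35 had a positive and 46 a negative log2 fold change, or 45 and 36 with median-of-ratios scaling of the libraries, and 74 of them (91.4%) stayed under 0.2 on the log2 scale in either direction, beside 57.1% of all tested genes. The 95% interval of limma lay within a 1.5-fold change either way for 76 of the 81 genes and within a 1.25-fold change for 72, which is 93.8 and 88.9% of them, beside 65.5 and 38.3% of all tested genes. For 33 of the 81 genes limma's SE was below the error of counting reads alone. Their intervals may be too narrow, and the counts of genes within these bounds too high. The subunit genes are abundant, with a median level of 43.5 RPKM against 6.14 RPKM over all tested genes.

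**Figure D1:**
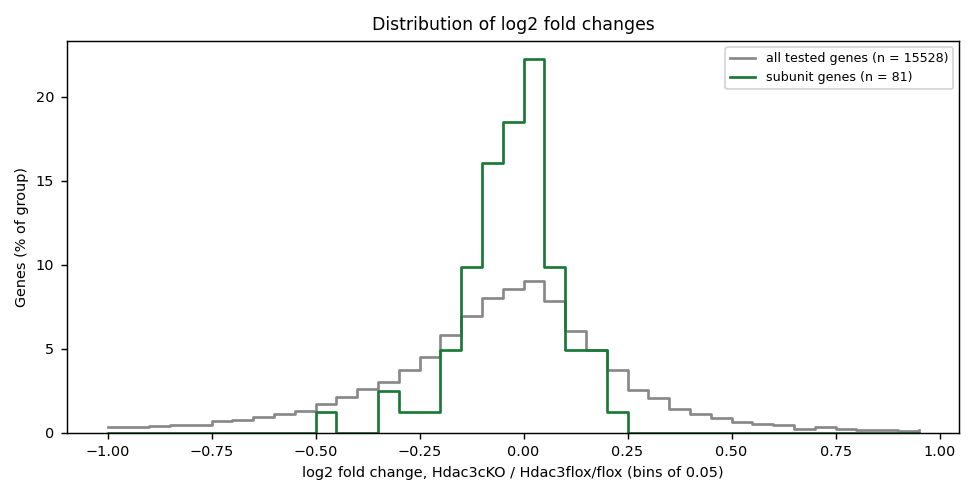
Distribution of log2 fold changes between Hdac3cKO and Hdac3flox/flox (x axis, bins of 0.05) as the percentage of each group of genes (y axis), for the 81 tested subunit genes and all 15528 tested genes. The subunit genes are gathered near 0, with 22.2% of them between 0 and 0.05 against 9.003% of all tested genes, and 1 subunit gene, with 387 of all tested genes, lies below the plotted range and 209 of all tested genes above it.

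The spread between replicates was not small beside these changes. The median absolute log2 difference over the 81 genes was 0.08 between the Hdac3flox/flox libraries, 0.04 between the Hdac3cKO libraries and 0.06 between the genotype means. The replicate values compare single libraries and the genotype value compares means of 2, which vary less, so they are not on a like scale. Between the Hdac3flox/flox libraries the difference leaned 1 way, as 61 of the 81 genes were higher in replicate 1, by a median of 0.06 on the log2 scale, while the same median over all tested genes was 0.00. The Hdac3cKO libraries showed no such lean, with 41 genes higher in replicate 1. The genotypes did not overlap for 17 genes in the direction of Hdac3cKO and for 32 genes in the direction of Hdac3flox/flox (20.99 and 39.5%), and over all tested genes these shares were 26.7 and 37.8%.

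Summed by complex, the level of the 82 genes was 5102 and 4954 RPKM in Hdac3flox/flox and 4951 and 4988 RPKM in Hdac3cKO. Complex I summed to 1568 and 1519 against 1509 and 1537 RPKM, and complex III to 539 and 519 against 523 and 525 RPKM. Complex V summed to 1434 and 1408 against 1413 and 1414 RPKM. In these 3 complexes, and over all 82 genes, the sums of the genotypes overlapped. Complex II, at 238 and 235 against 256 and 249 RPKM, was above the control in both Hdac3cKO libraries, and its means differed by 6.80%. Complex IV, at 1323 and 1273 against 1250 and 1263 RPKM, was below the control in both, with a difference of -3.21% between means, and with 49.5 RPKM between its Hdac3flox/flox replicates and 41.6 RPKM between the genotype means. With the libraries scaled by median-of-ratios size factors, the sums of complex IV overlapped and the difference was -0.24%, while that of complex II was 10.1%, still without overlap. On that scale complex V (2.52%) and all 82 genes (1.87%) lay higher in both Hdac3cKO libraries, so that the direction of the differences other than those of complexes II and IV turned with the scaling. These sums are descriptions, and 2 libraries per genotype give no exact test that could reach a p of 0.05.

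**Figure D2:**
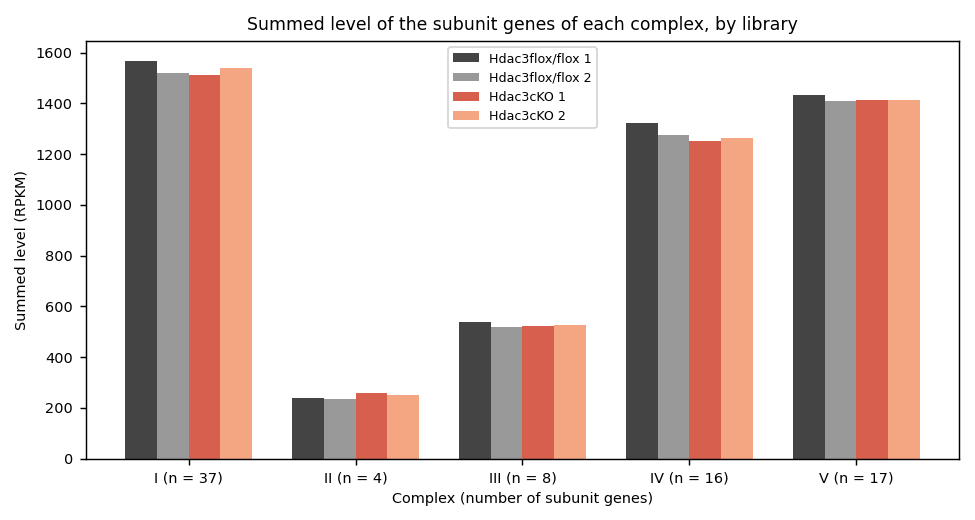
Summed level in RPKM (y axis, from 0) of the subunit genes of each complex (x axis, with the number of genes) in each library, 1 bar per library. Complex II is the lowest sum, at 235 to 256 RPKM, and the bars of each of the other complexes differ little between libraries.

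In complex I, the entry point for electrons from NADH, 2 of 37 genes were called, both lower in Hdac3cKO. The 7 nuclear genes of its core, which bind NADH and carry the electrons to ubiquinone, summed to 372 and 355 RPKM in Hdac3flox/flox and to 357 and 359 RPKM in Hdac3cKO. Of this core only Ndufs3, which encodes a subunit of the arm that reaches into the matrix, passed the test. Ndufs3 (chromosome 2, GRCm38, 90894634 to 90904827, minus strand) read 43.2 and 41.7 RPKM in Hdac3flox/flox and 36.9 and 37.5 RPKM in Hdac3cKO. Its log2 fold change was -0.19 ± 0.03 (SE, n = 2 per genotype, limma adjusted p = 0.0292). The levels of the genotypes did not overlap, and the gap between them was larger than that between replicates. Among the 28 accessory genes, Ndufv3 (chromosome 17, 31520115 to 31531331, plus strand), an accessory subunit beside the NADH-binding module, read 18.7 and 18.6 RPKM against 16.11 and 16.04 RPKM. Its log2 fold change was -0.21 ± 0.03 (limma adjusted p = 0.0246).

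The other genes of complex I did not pass the test in this fit. Ndufa6, an accessory subunit and the most abundant of the complex, read 129 and 125 RPKM in Hdac3flox/flox and 119 and 115 RPKM in Hdac3cKO (log2 fold change -0.12, limma adjusted p = 0.0741). The largest positive value belonged to Ndufa12, another accessory subunit, with 29.5 and 27.7 against 32.0 and 32.1 RPKM (0.16, limma adjusted p = 0.0626). Of both genes the levels of the genotypes lay apart without overlap. Ndufa12 shares long stretches with the pseudogene Gm15920, which took 27.5% of the reads of the 2 together, and with these reads added its log2 fold change was 0.10 (limma adjusted p = 0.0994). Without them, Ndufa12 was called with median-of-ratios scaling, with a stricter filter of 1 RPKM in every library and after removal of GC and length trends. Ndufs6, a small accessory subunit of the matrix arm, read 26.8 and 28.4 against 26.1 and 30.3 RPKM, and its genotypes overlapped.

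Ndufa4 and Ndufa4l2 are related genes, of which Ndufa4l2 is known as a gene induced by low oxygen. Ndufa4 read 73.5 and 69.2 RPKM in Hdac3flox/flox and 71.7 and 74.1 RPKM in Hdac3cKO. Ndufa4l2 read 6.38 and 7.47 against 5.64 and 4.20 RPKM, so that its share of the summed level of both went from 7.99 and 9.74% to 7.30 and 5.36%. Its log2 fold change of -0.50 ± 0.17 was not called (limma adjusted p = 0.109). Ndufa4l2 is also a gene of pericytes, and the summed level of 7 pericyte markers was 53.0 and 52.1 RPKM in Hdac3flox/flox and 38.9 and 39.6 RPKM in Hdac3cKO, with 2 of them, Rgs5 and Pdgfrb, called lower. The part of pericytes in the level of Ndufa4l2 was not tested.

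Complex II, which oxidises succinate in the TCA cycle and hands the electrons to ubiquinone, was the complex with the highest median log2 fold change, 0.10 over its 4 genes. Sdha (chromosome 13, 74322254 to 74350280, minus strand), the flavoprotein that holds the succinate-binding site, read 79.9 and 79.6 RPKM in Hdac3flox/flox and 91.7 and 88.9 RPKM in Hdac3cKO. Its log2 fold change was 0.18 ± 0.03 (SE, n = 2 per genotype, limma adjusted p = 0.0239), with no overlap between genotypes and a gap larger than that between replicates. Sdhb, its iron-sulfur partner, read 47.2 and 46.6 against 53.7 and 49.7 RPKM (0.14, limma adjusted p = 0.107, or 0.0391 with voom on recovered reads). The genes of the membrane anchor lay on both sides of 0. Sdhd read 77.2 and 76.7 against 79.6 and 80.1 RPKM (0.05, limma adjusted p = 0.211), and Sdhc read 33.7 and 31.8 against 31.4 and 29.8 RPKM (-0.10, limma adjusted p = 0.219). The TCA cycle list of 19 other genes leaves out the Sdh genes and takes in Pdha1, Pdhb, Dlat, Pdhx and Pcx. None of the 19 was called by limma in the same fit, beside 18.7% of all tested genes. Of them 5 had an unadjusted p under 0.05, and their median log2 fold change was 0.01. Voom on recovered reads called 5 of the 19, beside 29.9% of all tested genes.

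In complex III, which passes electrons from ubiquinol to cytochrome c, 1 of 8 genes was called. Uqcr11 (chromosome 10, 80402997 to 80406830, minus strand), a small supernumerary subunit, read 63.0 and 61.2 RPKM in Hdac3flox/flox and 56.1 and 55.2 RPKM in Hdac3cKO. Its log2 fold change was -0.16 ± 0.03 (limma adjusted p = 0.0335), and the genotypes did not overlap. Uqcrq, another small subunit, lay on the other side, with 52.7 and 49.5 against 55.1 and 57.7 RPKM (0.14, limma adjusted p = 0.0970, or 0.0375 with voom on recovered reads). The most abundant gene of the complex, Uqcr10, read 104 and 102 against 106 and 104 RPKM, with an interval of its log2 fold change from -0.05 to 0.10. The core proteins and the Rieske iron-sulfur subunit summed to 211 and 206 RPKM in Hdac3flox/flox and to 203 and 201 RPKM in Hdac3cKO, with none of the 3 called by limma (1 at an unadjusted p under 0.05) or by voom on recovered reads.

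Among the genes named for complex IV, where cytochrome c gives its electrons to oxygen, 1 was higher and 1 lower. Cox5a (chromosome 9, 57521274 to 57532426, plus strand), a subunit on the matrix side, read 18.0 and 18.1 RPKM in Hdac3flox/flox and 20.1 and 20.4 RPKM in Hdac3cKO, for a log2 fold change of 0.16 ± 0.03 (limma adjusted p = 0.0410). Cox7a2l (chromosome 17, 83501918 to 83517330, minus strand), the factor that joins complexes III and IV into supercomplexes, read 155 and 146 against 135 and 130 RPKM, for a log2 fold change of -0.18 ± 0.04 (limma adjusted p = 0.0480). Both genes lay apart between genotypes, and Cox7a2l varied more between replicates than Cox5a did. The other 9 widely used subunits of complex IV did not pass the test. The most abundant of them, Cox6a1, read 345 and 347 against 328 and 339 RPKM (-0.05, limma adjusted p = 0.232), and Cox8a, a small membrane subunit, read 249 and 238 against 250.5 and 244 RPKM.

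**Figure D3:**
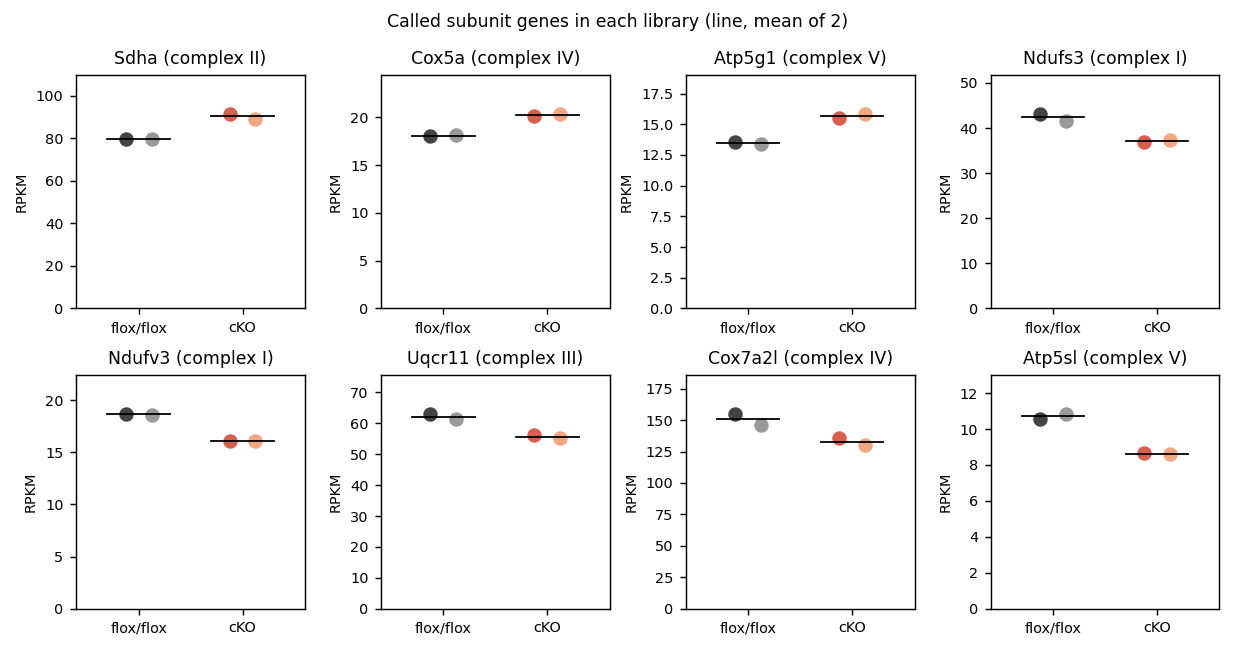
Level in RPKM (y axis, from 0) of the 8 called subunit genes in each library, with 1 point per library and a line at the mean of the 2 libraries of a genotype. Sdha, Cox5a and Atp5g1 lie higher and the other 5 lower in Hdac3cKO, none with overlap, and all changes are small beside the level of the gene.

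Among the genes named for complex V, the ATP synthase, 1 rose and 1 fell. Atp5g1 (chromosome 11, 96068852 to 96075670, minus strand), one of the genes that encode the same mature c subunit of the proton-driven ring, read 13.6 and 13.4 RPKM in Hdac3flox/flox and 15.5 and 15.9 RPKM in Hdac3cKO. Its log2 fold change was 0.22 ± 0.04 (limma adjusted p = 0.0298). The more abundant c subunit genes did not pass the test in this fit. Atp5g3 read 164 and 156 against 148 and 146 RPKM (-0.12, limma adjusted p = 0.0802, or 0.0174 with voom on recovered reads), and Atp5g2 read 81.1 and 74.6 against 74.9 and 75.6 RPKM. The share of Atp5g1 in the level of the 3 genes was 5.24 and 5.48% in Hdac3flox/flox and 6.50 and 6.68% in Hdac3cKO, and their sum was 259 and 244 against 238 and 238 RPKM. Atp5g1 shares long stretches with the pseudogene Gm10039, to which 291, 288, 341 and 313 reads were assigned beside 1220, 1204, 1403 and 1374 reads of Atp5g1 in the 4 libraries. With these reads added the log2 fold change of Atp5g1 was 0.21 (limma adjusted p = 0.0255).

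The lower gene named for complex V was Atp5sl (Dmac2, chromosome 7, 25619414 to 25625551, plus strand), whose human protein takes part in the assembly of the membrane arm of complex I. It read 10.6 and 10.8 RPKM in Hdac3flox/flox and 8.67 and 8.59 RPKM in Hdac3cKO, and its log2 fold change of -0.31 ± 0.04 (limma adjusted p = 0.0192) was the largest of the called genes. Atp5s, named like it, read 6.13 and 6.60 against 4.39 and 5.84 RPKM and was not called (-0.32 ± 0.15, limma adjusted p = 0.201). The 5 genes of the catalytic head and central stalk, which make ATP as the stalk turns, summed to 883 and 879 RPKM in Hdac3flox/flox and to 892 and 893 RPKM in Hdac3cKO, with none called by limma (0 at an unadjusted p under 0.05) or by voom on recovered reads (1 at an unadjusted p under 0.05). Atp5b, the catalytic subunit and the most abundant gene of the complex, read 312 and 313 against 324 and 326 RPKM, with an interval of its log2 fold change from -0.004 to 0.12 (limma adjusted p = 0.160). With median-of-ratios scaling its log2 fold change was 0.10 and it was called (limma adjusted p = 0.0493). The 4 genes of the peripheral stalk summed to between 213 and 214 RPKM in all 4 libraries.

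**Figure D4:**
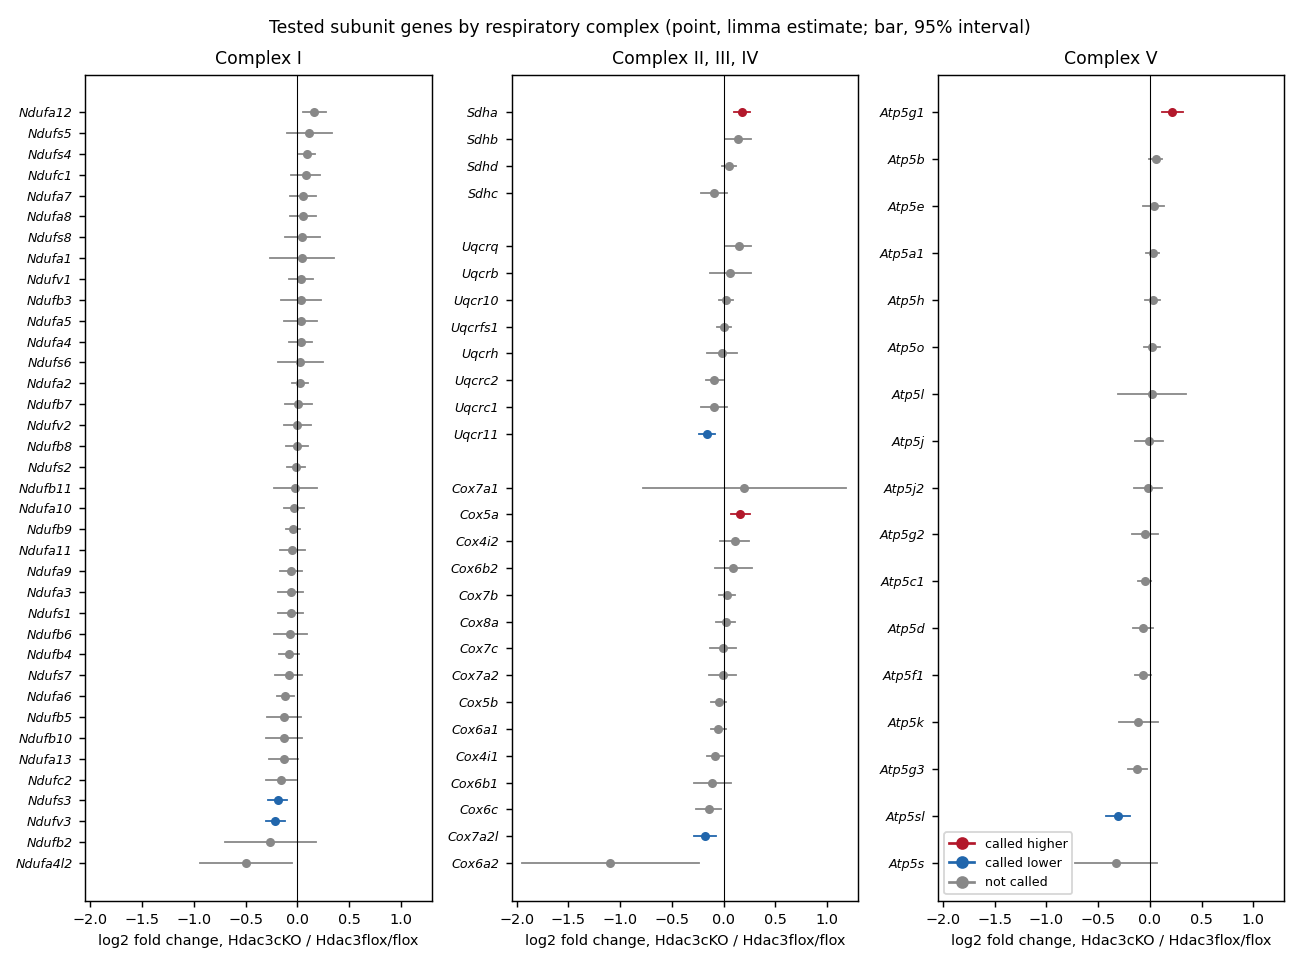
Log2 fold change between Hdac3cKO and Hdac3flox/flox (x axis) of the 81 tested subunit genes, by complex and sorted within it, with the limma estimate as a point and its 95% interval as a bar. The 3 genes called higher and the 5 called lower are spread over all 5 complexes, and wide bars belong to genes of low level such as Cox6a2 and Cox7a1.

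Several subunits of complex IV have isoforms that are best known from heart and skeletal muscle, lung or testis, and each was below its widely used relative in every library. Cox4i2, known from lung, read 9.70 and 9.06 RPKM in Hdac3flox/flox and 10.18 and 10.01 RPKM in Hdac3cKO, beside 78.8 and 77.2 against 74.5 and 72.9 RPKM for Cox4i1. Its share of both was 10.97 and 10.51% in Hdac3flox/flox and 12.01 and 12.07% in Hdac3cKO. Neither gene was called (limma adjusted p = 0.237 and 0.123). Cox6b2, known from testis, read 9.66 and 8.66 against 9.83 and 9.68 RPKM, beside 120.0 and 107 against 101.5 and 109 RPKM for Cox6b1. Cox7a1, of heart and skeletal muscle, read 2.55 and 1.22 against 2.33 and 1.80 RPKM, which overlapped, beside 71.5 and 65.4 against 68.3 and 67.6 RPKM for Cox7a2. Cox7b, the widely used relative of Cox7b2, read 50.9 and 50.4 against 51.2 and 52.4 RPKM.

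Cox6a2, the muscle isoform of Cox6a1, read 0.562 and 0.721 RPKM in Hdac3flox/flox and 0.239 and 0.250 RPKM in Hdac3cKO. These values stand for 7, 9, 3 and 3 reads, and the gene reached the limit for testing only through the Hdac3flox/flox libraries, where it is higher. The log2 fold change of -1.10, which was not called (limma adjusted p = 0.0835), had a counting error of 0.69 and depended on the pseudocount, with -0.40 at a pseudocount of 1 and -1.34 at 0.01. In no library did it exceed 0.207% of the summed level of Cox6a1 and Cox6a2. The 4 markers of striated muscle, Ckm, Acta1, Tnnt3 and Myl1, summed to 0.855 and 0.591 RPKM in Hdac3flox/flox and to 0.566 and 1.09 RPKM in Hdac3cKO, and none reached the limit for testing.

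**Figure D5:**
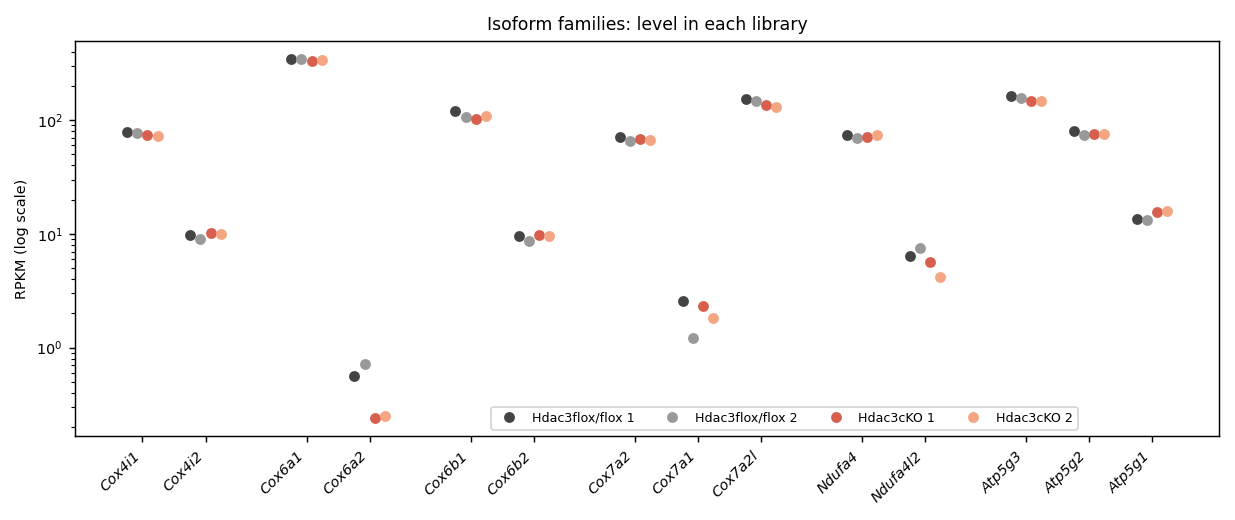
Level in RPKM (y axis, log scale) of subunit genes that have isoforms, in each library, with 1 point per library. In each family with a tissue-restricted member, that member lies far below its widely used relative, and the order of the genes within a family is the same in all 4 libraries.

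Nuclear subunit genes are known to share promoter motifs, among them those of NRF1, of the ETS factor GABPA, of YY1 and of SP1. Promoter windows of RefSeq on GRCm38.p6, from 250 bases before to 50 bases after the start, were found for 65 of the 82 genes, and 7 of the 8 called genes were among them. The letters searched on both strands were CGCATGCG for NRF1, CCGGAA for ETS factors, AAGATGG for YY1 and GGGCGG for SP1, and 48 of the 65 windows held at least 1 of them. CGCATGCG was found in 12.3% of the 65 windows, beside 3.95% of the windows of tested genes and 1.91% of all 27025 windows. CCGGAA was found in 38.5%, beside 27.6 and 15.2%, and AAGATGG in 13.8%, beside 7.34 and 6.48%. GGGCGG was found in 40.0%, beside 64.0% of the windows of tested genes and 35.9% of all windows. Matches overlapped each other in 2 of the 65 windows. Neither the window of Sdha nor that of Atp5g1, both higher in Hdac3cKO, held any of the 4 motifs.

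The windows of 2 genes lower and 1 gene higher in Hdac3cKO are shown because they hold matches and belong to different complexes. They are written 5′ to 3′ on the strand of the gene, with matches on either strand in capitals. Ndufs3 (chr2:90904672-90904971, minus strand) holds 3 matches to CCGGAA and 2 to GGGCGG, of which a pair overlap. Uqcr11 (chr10:80406772-80407071, minus strand) holds 1 match to CGCATGCG and 2 to CCGGAA. Cox5a (chr9:57520982-57521281, plus strand) holds 2 matches to GGGCGG.
Ndufs3: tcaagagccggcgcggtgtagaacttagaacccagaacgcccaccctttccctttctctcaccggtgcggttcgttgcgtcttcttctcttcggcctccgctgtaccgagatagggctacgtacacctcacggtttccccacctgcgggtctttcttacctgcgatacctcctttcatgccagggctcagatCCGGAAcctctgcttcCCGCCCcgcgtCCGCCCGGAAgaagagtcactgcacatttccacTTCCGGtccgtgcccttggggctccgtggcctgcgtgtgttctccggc
Uqcr11: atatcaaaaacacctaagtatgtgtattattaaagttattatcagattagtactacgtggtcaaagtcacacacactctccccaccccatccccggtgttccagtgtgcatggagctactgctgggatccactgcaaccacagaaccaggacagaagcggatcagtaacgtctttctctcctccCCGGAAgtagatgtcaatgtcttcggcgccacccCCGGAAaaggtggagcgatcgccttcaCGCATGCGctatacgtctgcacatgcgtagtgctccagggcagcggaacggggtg
Cox5a: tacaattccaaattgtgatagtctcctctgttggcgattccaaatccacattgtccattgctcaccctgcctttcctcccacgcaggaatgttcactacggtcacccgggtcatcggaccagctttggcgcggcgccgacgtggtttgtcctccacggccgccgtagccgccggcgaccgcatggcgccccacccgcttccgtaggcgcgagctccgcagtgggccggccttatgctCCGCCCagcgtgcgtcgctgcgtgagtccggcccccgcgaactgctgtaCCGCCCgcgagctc
A match is a description of the letters and no measure of binding, which was not assayed in these libraries.

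A list of mitochondrial biogenesis holds regulators of nuclear genes and proteins that act on the mitochondrial genome. Of its 19 tested genes 1 was called, a smaller share than the 18.7% of all tested genes. Ppargc1a and Ppargc1b were below the limit for testing. Pprc1, a coactivator that works with NRF1, read 9.10 and 9.59 RPKM in Hdac3flox/flox and 12.3 and 12.1 RPKM in Hdac3cKO (log2 fold change 0.38 ± 0.05, limma adjusted p = 0.0156). Gabpa read 15.7 and 15.3 against 16.7 and 17.2 RPKM (0.13, limma adjusted p = 0.0881) and was not called.

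The 13 subunits that the mitochondrial genome encodes are the partners of these genes within complexes I, III, IV and V. Of the 12 tested, 2 were lower and 11 had a negative log2 fold change, with a median of -0.09. By comparison, 11.0% of all tested genes were called lower, and 8724 of the 15528 had a negative log2 fold change (median -0.04). The summed level of the 13 mitochondrially encoded subunits was 15890 and 16012 RPKM in Hdac3flox/flox and 15319 and 14915 RPKM in Hdac3cKO. The 4 smallest p-values belonged to mt-Co3, mt-Nd4, mt-Nd6 and mt-Cytb. Among them mt-Nd4, of complex I, read 937 and 951 against 877 and 843 RPKM (-0.13 ± 0.03, limma adjusted p = 0.0492), and mt-Cytb, of complex III, read 3098 and 3142 against 2941 and 2890 RPKM (-0.10, limma adjusted p = 0.0736). mt-Co3, of complex IV, was also called lower, but it was listed at 15.3 and 16.4 against 12.4 and 11.9 RPKM, far below those 2 genes, although all 3 lie on the same genome. mt-Co2, mt-Atp6, mt-Nd3, mt-Nd4l and mt-Atp8 were listed far below those 2 genes too. All of these but mt-Atp8 are among the 12 tested, so the counts and the median of those 12 include such rows. Sequence shared between the mitochondrial and the nuclear genome was not examined.

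Among other genes of the pathway, 2 of 22 tested electron carriers and subunits outside the name rule were higher and 2 lower. Over all tested genes 18.7% were called in either direction. Cycs, the cytochrome c that links complexes III and IV, read 29.6 and 27.4 RPKM in Hdac3flox/flox and 36.4 and 37.3 RPKM in Hdac3cKO (0.37 ± 0.05, limma adjusted p = 0.0164). Coq8a, a kinase-like protein of ubiquinone synthesis, fell from 11.3 and 11.5 to 5.24 and 5.15 RPKM (-1.12 ± 0.05, limma adjusted p = 0.00318). Of 44 tested assembly factors 3 were higher and 4 lower, with a median of -0.03. Lower were Higd2a, which promotes assembly of complex IV, at 60.9 and 61.7 against 49.6 and 49.6 RPKM (-0.31, limma adjusted p = 0.00833), and Uqcc3, of complex III, at 23.2 and 24.5 against 18.0 and 18.4 RPKM (-0.38, limma adjusted p = 0.0117). Higher was Uqcc2, also of complex III, at 23.4 and 23.4 against 27.6 and 28.1 RPKM (0.25, limma adjusted p = 0.0159).

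In the lists of protein import and of the mitochondrial ribosome, all called genes were higher. Over all tested genes 7.68% were called higher and 11.0% lower. Of 22 tested import genes 5 were called higher, with a median of 0.11, and their smallest p-values belonged to the chaperones. Hspa9, the motor of import, read 93.3 and 92.0 RPKM in Hdac3flox/flox and 111 and 110 RPKM in Hdac3cKO (0.25, limma adjusted p = 0.00983). Hspd1, which folds imported proteins, read 225 and 229 against 265 and 259 RPKM (0.21, limma adjusted p = 0.0159). Of 77 genes of the mitochondrial ribosome 3 were called higher, a smaller share than over all tested genes. Their log2 fold changes were positive for 44 and negative for 33, with a median of 0.03. Of 13 carriers and porins 1 was higher and 1 lower, with a median of 0.02.

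The calls were close to the limit of these data. Recovered read counts gave the counting error of each log2 fold change, and for 6 of the 8 called genes limma's SE was below it, as it was for 33 of the 81 tested genes. Sdha (6034, 6024, 6982 and 6466 reads, counting error 0.02) and Cox7a2l (3255, 3079, 2867 and 2629 reads, counting error 0.03) were the called genes whose SE exceeded it. Ndufv3, at the other end, rested on 426, 425, 370 and 352 reads with a counting error of 0.07. These are the smallest whole numbers its values allow. With median-of-ratios scaling, which moved the median of all genes from -0.04 to 0.01, 6 subunit genes were higher and 2 lower. The share of higher genes among all calls then went from 41.1 to 54.5%. Ndufs3, Uqcr11 and Cox7a2l were no longer called, while all 8 genes kept their sign. Leaving out any 1 library could not turn these signs, since none of the 8 genes overlapped between genotypes. One genotype then rests on a single library, so calls from these fits are no measure of the subunit genes.

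Reads of 1 gene can be assigned to another where sequences are shared. Near-identical copies elsewhere in the annotation were found for 30 of the subunit genes, among them Atp5g1, Ndufs3, Uqcr11 and Cox7a2l of the called genes. The count includes short stretches shared with entries annotated as miRNA or misc_RNA. These were the only copies of Atp5b, Ndufa7 and Ndufa9 and most of those of Ndufs7. Copies with a row of their own took over 10% of the summed reads for Atp5l, Ndufa12 and Atp5g1. With the reads of copies added, Cox7a2l was no longer called (limma adjusted p = 0.0502), and the other 7 were. On the opposite strand, Ndufs3 overlaps Kbtbd4, Cox5a overlaps Gm26631 and Sdha overlaps Gm16125, and the strand setting of the counting is unknown.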

How the data were processed

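Illumina TruSeq libraries of 2 Hdac3flox/flox and 2 Hdac3cKO mice were sequenced, and the authors deposited RPKM values. Bowtie 0.12.2 and mm8 stand in the submitters' processing notes, while no counting tool, annotation or strand setting is named in the sources consulted. Of 28611 rows, 26976 matched 1 gene of GENCODE M21 (GRCm38) by symbol or, for older names, by a RefSeq synonym. In 90.9% of them the length behind the RPKM was that of the annotated exons, so positions are given on GRCm38, at odds with mm8. Atp5o, the name of more than 1 annotated gene, has no position here. Whole reads were recovered from the values (relative tolerance 1e-06), for 15 of the 82 genes as the smallest whole numbers, which may be a fraction of the true count. Counting errors cover counting only, since reads carry no molecular identifiers.

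Genes reaching 0.5 RPKM in 2 or more libraries were fitted as log2(RPKM + 0.1) with limma 3.58.1 (trend, genotype only) in R 4.3.3, which understates changes of low genes and was tested on simulated data. P-values measure only the spread between these libraries. Alternatives were pseudocounts of 1 and 0.01, no filter, at least 1 RPKM in every library, median-of-ratios scaling, voom weights on the recovered reads, a replicate block, removal of GC and length trends (splines, 5 degrees of freedom), each library left out and, added after the data were seen, the reads of near-identical copies (BLAST 2.17.0, 95% identity or more across 50% or more of the shorter transcript). Subunit genes named with values were those called, the most abundant and most changed of each complex, isoform families and the Sdh genes, with at most 4 genes of smallest p from each other list. Members, lists and motifs were chosen with earlier results of these data known. Python 3.11.15 with pandas 2.3.3, numpy 2.4.6 and matplotlib 3.10.9 served for tables and plots.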

Additional observations from a re-analysis of the deposited data

How the results depend on the processing

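With limma and no filter, 0 subunit genes were higher and 2 lower (18 had an unadjusted p under 0.05), and 410 of all genes were higher and 544 lower. Median-of-ratios scaling gave 6 subunit genes higher and 2 lower (9.88%, beside 19.2% of all tested genes) and a median log2 fold change of 0.0295. Limma voom on recovered reads called 1875 of all genes higher and 2767 lower (29.9%), beside 11.1% of the subunit genes. After removal of GC and length trends 7 subunit genes were called (8.75%, beside 19.3% of all tested genes), 3 of them lower. With the replicate number as a block 5 were called (6.17%, beside 13.8%), 1 of them higher. With the block and trend removal together 1 was higher and 2 were lower (3.75%, beside 13.1%). The replicate numbers are shared by name only: over all genes, deviations of same-numbered libraries correlated at 0.08. With each library left out in turn, limma called 0 to 0 subunit genes higher and 0 to 0 lower (12 to 17 had an unadjusted p under 0.05), and 0 to 45 of all genes higher and 0 to 53 lower, with a median of the subunit genes from -0.0568 (without Hdac3flox/flox replicate 2) to 0.0042 (without Hdac3flox/flox replicate 1). A lone library of a genotype was then taken to vary like the pair of the other. The signs of the 8 called genes were kept in all of these fits, but only scaling, voom and trend removal could have turned them. The filter and the block leave the log2 fold change as it is. Without overlap between genotypes, leaving out 1 library cannot turn a sign. Calls of single subunit genes were gained or lost as follows, with the cause not tested. A pseudocount of 0.01 lost Cox7a2l, and no filter lost all but Atp5sl and Ndufv3. Voom shared 5 of its 9 calls with the unweighted fit, lost Cox5a, Ndufv3 and Uqcr11, and added Cox6c, Sdhb, Uqcrq and Atp5g3. Median-of-ratios scaling lost Cox7a2l, Ndufs3 and Uqcr11 and added Atp5b, Ndufs4 and Ndufa12. The block lost Atp5g1, Cox5a and Ndufs3. Removal of GC and length trends lost Cox7a2l and Uqcr11 and added Ndufa12, which a filter of at least 1 RPKM in every library also added. Cox6c and Ndufs4 are named here after their values were seen. Depth limits genes of low level: the 95% interval of Cox7a1 ran from -0.78 to 1.18.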
